A study of Xenopus laevis with 4 samples.

Results

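Single ectoderm cells of Xenopus laevis embryos were divided by whether they contained transcripts of the gene model Xelaev18021230m.g, and the remaining transcriptome was compared between the cells with and without it, library by library. The gene was chosen by measured values of these same libraries, in which its level was lower in cloned than in fertilized embryos. Its own level by condition is therefore given here as a description, without a test. Each cell was thinned at random to 6000 UMIs (unique molecular identifiers, 1 per captured transcript), so that deep and shallow cells had the same chance of showing the gene. A cell was positive when at least 1 UMI of the gene was left after thinning, and negative when its full count of the gene was 0. The negative rule was not equalized for depth, so a shallow cell could meet it more easily than a deep one. Of 3405 cells, 877 were positive, 1671 were negative, and 857 were on neither side because their UMIs of the gene were lost in the thinning.

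The study set nuclear transfer (NT) embryos, made by placing endoderm nuclei of neurula stage Xenopus laevis embryos into enucleated eggs, against in vitro fertilized (IVF) embryos. Ectodermal explants of stage 12 (gastrula) were pooled from 5 embryos per library, and 1 NT and 1 IVF library were made in each of 2 experiments (NT1 and IVF1, then NT2 and IVF2). NT embryos entered a pool only if they looked like IVF embryos at that stage, so clones of abnormal appearance are not represented. The strain of the frogs is not given in the sources used here, and the 10x Genomics 3' chemistries named (v2 and v3) are not assigned to libraries.

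The gastrula ectoderm of Xenopus is a sheet of an outer and an inner layer. The outer layer goes on to form the mucus-secreting goblet cells of the larval epidermis. The inner layer gives rise to multiciliated cells, ionocytes and basal stem cells, and the ectoderm next to it forms the neural plate and its border. In a nuclear transfer the egg has to replace the expression program of the donor nucleus with an embryonic one, and genes of the donor program can stay on while genes of the new program stay off. The gene identifiers could not be paired with symbols (0 of 31179 were found among the 44456 entries of the RefSeq table for this species), so neither Xelaev18021230m.g nor its companions can be given a function, and no cell type is named for either side.

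The libraries held 514 (NT1), 566 (IVF1), 1050 (NT2) and 1275 (IVF2) cells and shared 0 cell barcodes. Every deposited cell had at least 6332 UMIs, so none was lost to thinning. Median depth differed between the sides, at 14341 UMIs in positive against 22612.5 in negative cells of NT1, 26859 against 22986 in IVF1, 47668.5 against 41359.5 in NT2 and 45107 against 40583 in IVF2. Positive cells were thus the shallower side in NT1 and the deeper side in the other 3 libraries. At an equal 6000 UMIs, the median number of detected genes was higher in positive than in negative cells in each library, by 65 (NT1), 31.5 (IVF1), 101.5 (NT2) and 46.5 genes (IVF2). Called doublets made up 0%, 1.90%, 0.735% and 3.46% of positive cells in NT1, IVF1, NT2 and IVF2, against 1.09%, 0.376%, 0.725% and 1.15% of negative cells.

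Positive cells made up 12.3% of NT1 (63 cells, exact 95% interval 9.55% to 15.4%) and 13.0% of NT2 (136 cells, 11% to 15.1%). They made up 27.9% of IVF1 (158 cells, 24.3% to 31.8%) and 40.8% of IVF2 (520 cells, 38.1% to 43.5%). The NT libraries lay close together and the intervals of the IVF libraries did not overlap each other or those of NT. The intervals cover counting error only, and the NT and IVF values describe what the gene was chosen for. Without thinning, the share of cells with at least 1 UMI was 28.8% and 34.3% in NT1 and NT2, against 53.0% and 72.6% in IVF1 and IVF2.

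The positive cells also differed in how much of the transcript they held. A single UMI in 6000 was all that 74.6% of NT1 and 70.6% of NT2 positive cells had, against 53.8% in IVF1 and 26% in IVF2. The largest count of the gene in a positive cell after thinning was 4 and 5 UMIs in NT1 and NT2, and 12 and 47 in IVF1 and IVF2. Cells with 10 or more UMIs in 6000 numbered 0 in NT1 and 0 in NT2, 1 in IVF1 and 160 in IVF2, where they were 12.5% of the library. Summed over positive cells, the gene reached 119 CPM (its UMIs scaled to 1000000 UMIs of the sum) in NT1 and 136 CPM in NT2, against 298 CPM in IVF1 and 1234 CPM in IVF2. Over whole libraries it stood at 29.6 and 32.9 CPM in NT1 and NT2, against 115 and 516 CPM in IVF1 and IVF2. IVF2 therefore stood apart from IVF1 by more than IVF1 stood apart from the NT libraries. For cells just outside the rule, those on neither side, the full counts of the gene came to 52.9 CPM in NT1, 72.3 CPM in IVF1, 53.3 CPM in NT2 and 41.5 CPM in IVF2, the lowest of the 4.

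**Figure D1:**
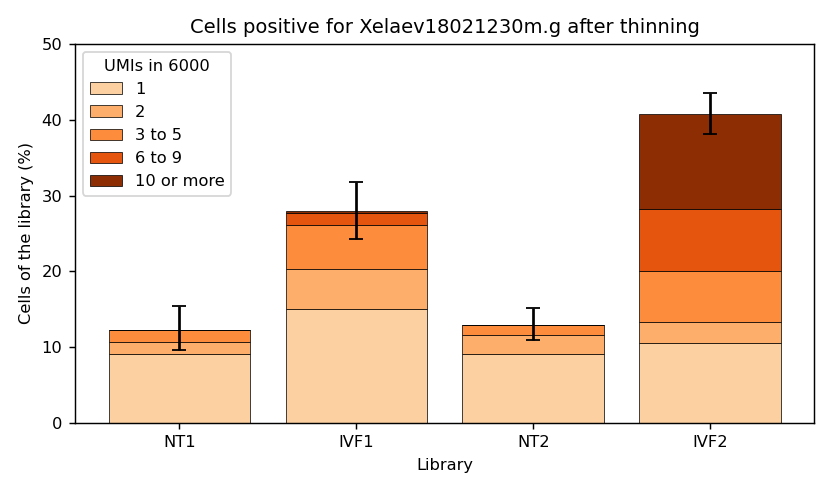
Share of the cells of each library (vertical axis, %) that kept at least 1 UMI of Xelaev18021230m.g after thinning to 6000 UMIs, stacked by the number of UMIs, with exact 95% binomial intervals of the whole share. NT1 and NT2 reach 12.3% and 13.0%, mostly with 1 UMI, while the bar of IVF2 reaches 40.8% and 12.5% of its cells held 10 or more.

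Positive cells differed from negative cells in a large part of the transcriptome, in both directions. With full counts summed per library and side, Xelaev18021230m.g itself left out and the library as a block, 4195 of 14820 genes tested passed an adjusted p of 0.05 (28.3%, edgeR quasi-likelihood test with Benjamini-Hochberg adjustment, 4 pairs of sums). Of these, 2143 genes were higher in positive cells (14.5% of those tested) and 2052 were lower (13.8%). Which direction held more calls depended on the scaling, with 2020 higher and 2359 lower under DESeq2 size factors in edgeR, and 1957 and 2163 by DESeq2. The rises were the larger changes, with a median log2 fold change of 1.15 against -0.71 for the falls and -0.03 over all genes tested. Past 1 log2 unit, 1261 genes were higher and 673 were lower, and past 2 log2 units 472 were higher and 149 lower. DESeq2 called 4120 genes in all, and by edgeR 3699 were called with cells matched on depth and 4228 without doublets. Fewer were called when thinned counts were summed, which discards most UMIs (2317), and when NT2 was left out (2274). With cells counted as negative whenever thinning left no UMI of the gene, 3019 of 16030 genes were called (18.8%). With positive cells taken from 2 UMIs, 3094 of 14693 were called (21.1%).

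Of the 4195 called genes, 2082 were higher and 2024 were lower in positive cells of each of the 4 libraries, against 3189 (21.5%) and 4022 (27.1%) of all 14820. Genes called by a paired test on these libraries largely have to share a direction, so this is a description. A stricter count asked for a change of more than 1 log2 unit (a doubling or halving of CPM) in one direction in each of the 4 libraries. It was met by 568 genes that were higher (3.83% of 14820) and 294 that were lower (1.98%), and each of these 862 genes was also among those called. With cells counted as negative whenever thinning left no UMI of the gene, the counts were 162 higher and 230 lower. At 2 log2 units in each library, 47 genes were higher and 24 lower. The ratios of positive over negative cells followed each other between libraries, with Pearson correlations of 0.62 to 0.80 across the 14820 genes for the 6 pairs of libraries. For the 3300 genes that averaged 50 CPM or more they were 0.81 to 0.92. These are descriptions across genes, which are not independent of each other, and the points share the depth of their libraries.

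**Figure D2:**
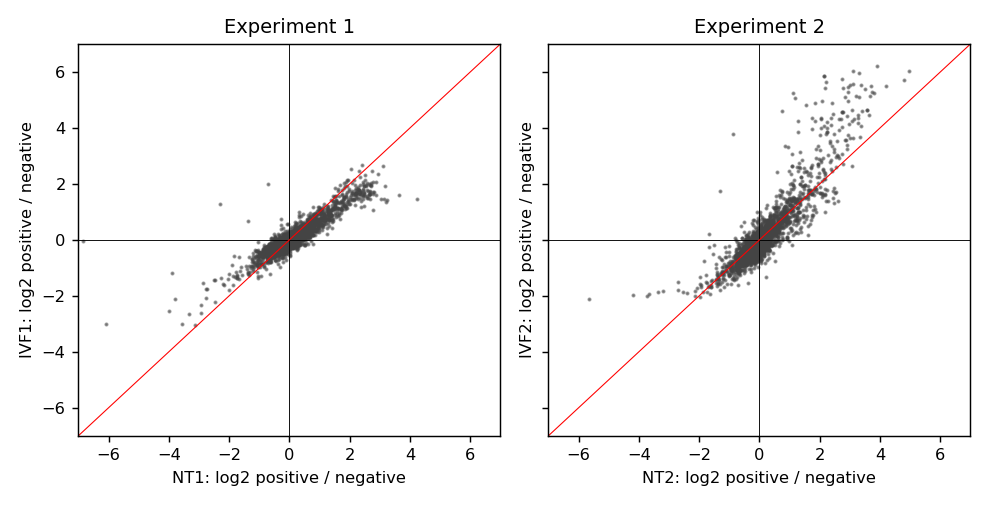
Each point is 1 of 3300 genes that averaged 50 CPM or more, placed by the log2 ratio of positive over negative cells in the NT library (horizontal) and the IVF library (vertical) of experiment 1 (left) and experiment 2 (right), with the line of equality in red. Genes lie along the diagonal in both experiments, and the raised genes of experiment 2 lie above it, at larger ratios in IVF2 than in NT2.

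Genes picked in one experiment kept their direction in the other, whose ratios had no part in the pick. The pick was made among the genes tested, and the filter on low counts behind these used the sums of both experiments. A gene seen only in positive cells of 1 experiment could fail that filter, which favors genes that repeat. How far this raised the shares below was not tested. In experiment 1, 455 genes (of 9022 with at least 10 CPM) were past 1 log2 unit higher in positive cells of both NT1 and IVF1. In experiment 2, 448 of them (98.5%) were higher in NT2 positive cells, with a median log2 ratio of 2.03, and 452 (99.3%) were higher in IVF2 positive cells, with a median of 2.75. Among all 9022 genes, 44.7% were higher in positive cells of NT2 and 41.1% in those of IVF2. The 176 genes picked as lower repeated in the same way, with 176 lower in NT2 (median -1.72) and 175 lower in IVF2 (median -1.51).

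The reverse pick gave 671 higher and 282 lower genes from experiment 2, of 7680 with at least 10 CPM. In experiment 1, 663 of the 671 were higher in NT1 and 663 in IVF1 (98.8% each), with median log2 ratios of 1.51 and 1.17. Of the 282, 275 were lower in NT1 and 271 in IVF1, with medians of -1.45 and -1.13. More than 1 log2 unit was reached by 72.6% of the raised genes in NT1 and by 59.3% in IVF1, against 9.13% and 6.58% of all 7680 genes, of which 48.2% and 45.2% were higher in positive cells. The positive and negative cells of the experiments thus differed in the same direction in nearly all of the genes picked in the other experiment.

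The gene with the largest fitted rise among those named was Xelaev18020205m.g. It had 5.17 (NT1), 1.79 (IVF1), 32.8 (NT2) and 76.8 CPM (IVF2) in positive cells, against 1.16, 0.66, 1.63 and 0.99 CPM in negative cells of the same libraries. Positive cells were higher in each library, but in experiment 1 the sums rested on 9 and 11 UMIs in positive cells and the level stayed under that of experiment 2. The fitted log2 fold change was 4.48 ± 0.64 (SE, edgeR adjusted p = 0.00271). It was 3.00 with cells counted as negative after thinning (edgeR adjusted p = 0.0261) and 3.56 without IVF2. Xelaev18020205m.g was not among the genes tested with thinned counts summed or with cells matched on depth. After thinning, 3.17% (2 of 63 cells, NT1), 1.27% (2 of 158, IVF1), 17.6% (NT2) and 34.4% (IVF2) of positive cells had a UMI of it. In negative cells the shares were 0.546% (NT1), 0 of 266 cells (IVF1, which allows up to 1.38%), 0.725% (NT2) and 1.15% (IVF2).

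Xelaev18029008m.g showed a like pattern with positive cells higher in all 4 libraries. It had 11.5 (NT1), 9.09 (IVF1), 44.0 (NT2) and 72.1 CPM (IVF2) in positive cells, against 0.84, 1.71, 2.59 and 0.63 CPM in negative cells. The lowest positive value lay above the highest negative value, and the fitted log2 fold change was 4.45 ± 0.57 (SE, edgeR adjusted p = 0.0019). A UMI was found after thinning in 6.35% (NT1), 5.06% (IVF1), 25% (NT2) and 32.1% (IVF2) of positive cells, so that most positive cells showed none. In negative cells the shares were 0.273%, 1.13% and 0.87% in NT1, IVF1 and NT2, and 0 of 349 cells in IVF2, which allows up to 1.05% by the exact interval.

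Among called genes averaging 10 CPM or more and lower in all 4 libraries, Xelaev18019016m.g had the largest fitted fall. It had 5.75 (NT1), 21.3 (IVF1), 2.11 (NT2) and 11.8 CPM (IVF2) in positive cells, against 131, 137, 34.6 and 51.0 CPM in negative cells, with no overlap between the sides. The fitted log2 fold change was -3.0 ± 0.34 (SE, edgeR adjusted p = 0.00128). After thinning it was seen in 0 of 63 NT1 positive cells, which allows up to 5.69%, and in 7.59%, 1.47% and 5.58% of those of IVF1, NT2 and IVF2. The shares in negative cells were 43.4% (NT1), 45.9% (IVF1), 17.8% (NT2) and 26.6% (IVF2).

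Xelaev18038148m.g fell by as much and was more abundant. It had 46.5 (NT1), 66.7 (IVF1), 21.0 (NT2) and 112 CPM (IVF2) in positive cells, against 547, 541, 270 and 432 CPM in negative cells. Positive cells were lower in each library (log2 fold change -3.0 ± 0.28, SE, edgeR adjusted p = 0.000773). A UMI was present after thinning in 5.15% to 24.6% of positive cells, depending on the library, and in 56.4% to 75.9% of negative cells. Negative cells thus differed from positive cells also by transcripts that they held at a higher level, and not only by the absence of the selecting gene.

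A pair of genes that earlier results of these libraries had named behaved differently from each other. Xelaev18030329m.g had 57.5 (NT1), 363 (IVF1), 3.52 (NT2) and 341 CPM (IVF2) in positive cells, against 11.2, 76.2, 1.76 and 33.8 CPM in negative cells. It was higher in positive cells (log2 fold change 2.43 ± 0.30, SE, edgeR adjusted p = 0.00168), while NT positive cells stayed below IVF negative cells in experiment 1 and far below them in experiment 2. Xelaev18033986m.g had 12.6, 5.52, 31.2 and 6.60 CPM in positive cells of NT1, IVF1, NT2 and IVF2, against 5.06, 1.71, 38.4 and 1.20 CPM in negative cells. It was higher in positive cells of 3 libraries and lower in those of NT2, and did not pass the test (1.04 ± 0.43, SE, edgeR adjusted p = 0.114). It passed under DESeq2 (adjusted p = 0.0204) and when NT2 was left out (edgeR adjusted p = 0.0175).

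**Figure D3:**
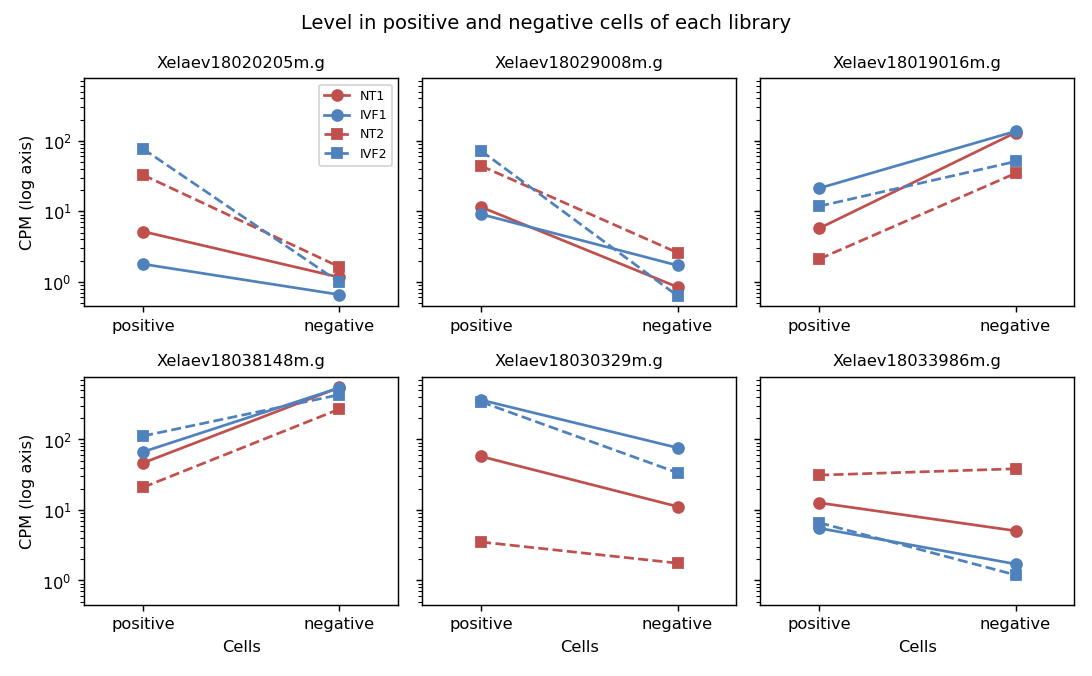
Level in CPM (log axis) of 6 genes in positive (left) and negative (right) cells, with 1 line per library, red for NT, blue for IVF, solid for experiment 1 and dashed for experiment 2. Lines of the first pair of genes and of Xelaev18030329m.g run down from positive to negative cells, those of Xelaev18019016m.g and Xelaev18038148m.g run up, and for Xelaev18033986m.g only the NT2 line runs up.

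To see how single cells carried this profile, each cell was given a score, the percentage of its UMIs that fell on the raised genes picked in the other experiment. The median score of positive cells was 12.1% (NT1), 11.1% (IVF1), 12.4% (NT2) and 16.8% (IVF2), against 1.95%, 2.2%, 1.3% and 2.37% in negative cells. The lowered genes of the other experiment gave the mirror image, with medians of 1.01%, 1.01%, 0.597% and 0.494% in positive cells of NT1, IVF1, NT2 and IVF2, against 3.24%, 3.07%, 2.73% and 2.57% in negative cells. Scores fell into a low and a high group with few cells between them in NT1, IVF1 and IVF2, and less clearly so in NT2. A boundary of 6%, set after the scores were seen, had 5 (NT1), 7 (IVF1), 37 (NT2) and 10 cells (IVF2) within 1 percentage point of it.

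In NT1, IVF1 and NT2 a cell with a single UMI of the gene scored nearly as high as one with more. Cells with 1 UMI had median scores of 12.0%, 10.8% and 12.2% in these libraries (47, 85 and 96 cells). Those with 3 or more had 13.6%, 11.4% and 13.5%, from only 8, 43 and 14 cells. IVF2 was different, with a median of 2.76% at 1 UMI, 15.7% at 2 and 17.5% at 3 or more UMIs. The cells on neither side followed the same split, with medians of 9.64% in NT1, 10.6% in IVF1 and 11.3% in NT2 but 2.41% in IVF2. In IVF2 the cells with a single UMI, and those whose UMIs were lost in thinning, thus mostly scored like its negative cells.

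**Figure D4:**
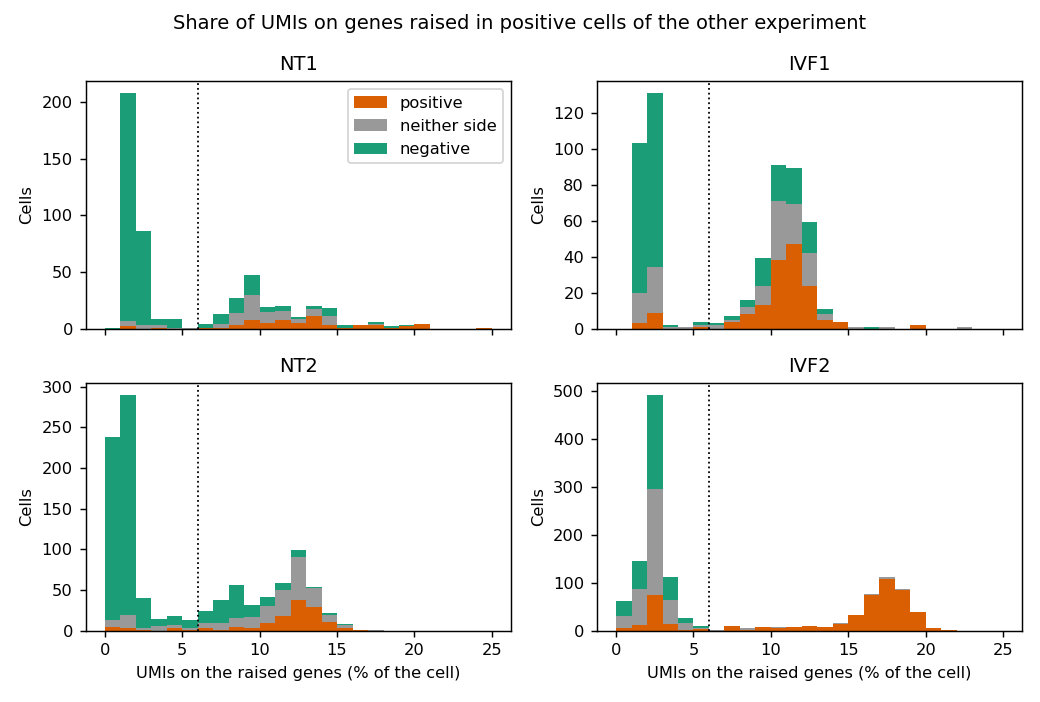
Number of cells (vertical) by score, the share of a cell's UMIs on genes raised in positive cells of the other experiment (horizontal, %), stacked as positive, neither side and negative, 1 panel per library. The dotted line marks 6%; the high group of IVF2 is almost wholly positive, while those of NT1, IVF1 and NT2 hold cells of every kind.

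The share of high-scoring cells did not run one way between NT and IVF, while the share of them that was positive was lower in NT in both experiments. Cells above 6% made up 38.9% of NT1, 57.4% of IVF1, 41.5% of NT2 and 33.6% of IVF2, so NT was lower than IVF in experiment 1 and higher in experiment 2. Within that group, positive cells were 30.0% in NT1 (exact 95% interval 23.7% to 36.9%), 44.6% in IVF1 (39.1% to 50.2%), 28.2% in NT2 (24.0% to 32.7%) and 95.1% in IVF2 (92.6% to 96.9%). The level of the gene in the group was 57.9 CPM in NT1 and 70.6 CPM in NT2, against 199 CPM in IVF1 and 1488 CPM in IVF2. Within the high-scoring cells the level was also lower in NT than in IVF of each experiment. The scores rested on 671 genes in the cells of experiment 1 and on 455 in those of experiment 2. The boundary was set after the scores were seen. These values are again a description, since the gene was chosen for its lower level in NT, and the cause of that lower level was not tested.

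At or below 6%, positive cells were 0.955% in NT1, 5.39% in IVF1, 2.12% in NT2 and 13.2% in IVF2, and the gene was at 2.26, 12.2, 2.15 and 25.8 CPM. The order of these low levels over the libraries was close to the order within high-scoring cells. Of all UMIs of the gene, 95.3% to 96.7% came from high-scoring cells in each library. Free RNA in the droplets can give single UMIs to cells that do not make a transcript, and since no cell type that should lack the gene can be named, its part in the low-scoring positive cells was not tested. Low-scoring cells made up 4.76% (NT1), 8.23% (IVF1), 9.56% (NT2) and 21.5% (IVF2) of the positive cells. Conversely, 18.3%, 31.2% and 18.7% of negative cells of NT1, IVF1 and NT2 scored above 6%, but 0.573% (2 cells) of those of IVF2.

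**Figure D5:**
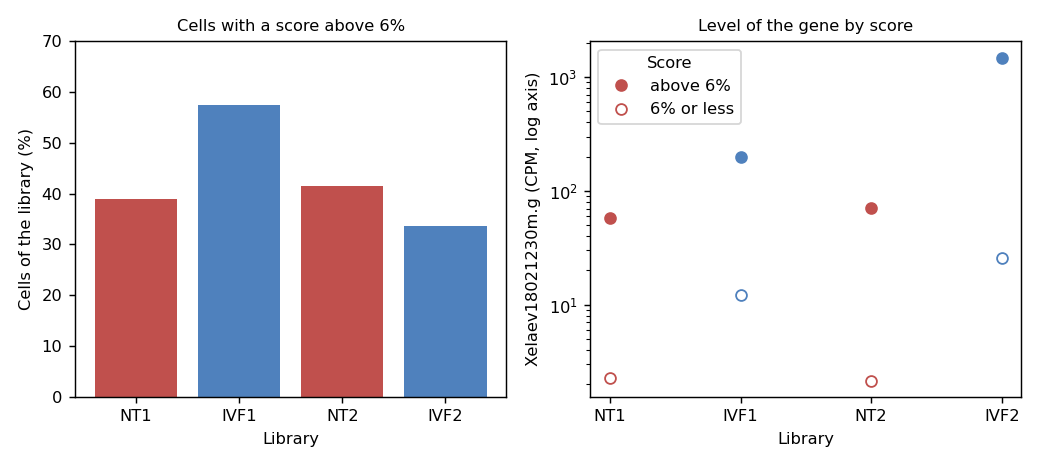
Left, the share of each library's cells with a score above 6% (vertical, %). Right, the level of Xelaev18021230m.g (CPM, log axis) in cells above (filled) and at or below (open) that score, with NT in red and IVF in blue; the shares run from 33.6% to 57.4%, and the filled points from 57.9 CPM in NT1 to 1488 CPM in IVF2.

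Clustering each library on its own, with the selecting gene left out, placed the positive cells in a few clusters. Of 5, 3, 7 and 7 clusters in NT1, IVF1, NT2 and IVF2, those with more positive cells than their library as a whole numbered 2, 1, 2 and 2. They held 39.9%, 58.0%, 35.5% and 33.8% of the cells and 95.2%, 92.4%, 89.7% and 78.8% of the positive cells. In the cluster richest in positive cells, 37.2% (NT1), 44.5% (IVF1), 43.3% (NT2) and 96.8% (IVF2) of the cluster's cells were positive. In the poorest, positive cells were 0 of 83 cells in NT1, 2.78% in IVF1, 0 of 57 cells in NT2 and 8.89% in IVF2. No cluster could be named, since no identifier had a symbol.

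Among high-scoring cells alone, few or no genes were called between positive and negative cells. This comparison was added after the scores were seen and used NT1, IVF1 and NT2, because IVF2 had only 2 negative cells above the boundary. Of 12936 genes tested, 0 passed by edgeR (866 at an unadjusted p under 0.05) and 3 by DESeq2, and with thinned counts edgeR called 2 of 7335 and DESeq2 0. All cells of the same 3 libraries gave 3347 calls of 14805 (22.6%). The negative side held 67, 83 and 129 high-scoring cells in NT1, IVF1 and NT2, against 366, 266 and 690 cells in all. The positive side held 60, 145 and 123, against 63, 158 and 136. The 2034 genes called higher and 1674 called lower over the 4 libraries that could be tested here had median log2 fold changes of 0.26 and -0.17 within the high-scoring cells. Over all cells of the same 3 libraries the medians were 0.98 (2024 genes) and -0.57 (1674 genes). Choosing cells by a score built from such genes narrows their range by construction. Median depth was 14152.5, 26472 and 47355 UMIs in the positive cells of NT1, IVF1 and NT2 there, against 15336, 14864 and 37693 in the negative cells.

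Whether the positive profile differs between NT and IVF was asked first as a difference of differences. The change of positive against negative cells within a library differed between NT and IVF for 0 of 16215 genes (0%) by edgeR, with 323 genes at an unadjusted p under 0.05, and for 2 genes by DESeq2. Other fits gave other counts: 360 genes without IVF1, 27 without IVF2, and 69 when the sides were also allowed to differ between experiments. No gene is named from these fits. With 2 libraries per condition, a count of 0 does not show that the profiles were alike.

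Positive cells of NT and IVF embryos were then compared directly, with the experiment as a block. Of 14622 genes, 54 passed (0.369%, edgeR), of which 7 were higher in NT positive cells (0.0479%) and 47 were lower (0.321%). DESeq2 called 31, of which 29 were among the 54. Negative cells of NT and IVF embryos gave 0 of 15967 genes (0%) by edgeR, with 753 (4.72%) at an unadjusted p under 0.05. DESeq2 called 24 there (0.15%). Low-scoring cells were 4.76% and 9.56% of the positive cells of NT1 and NT2, against 8.23% and 21.5% of those of IVF1 and IVF2, and their part in this comparison was not tested. With positive cells taken from 2 UMIs, 111 genes passed. The count was not stable in other ways, at 286 with another random draw, 20 without doublets, 0 with cells matched on depth and 0 without the experiment block. Fits with a library left out kept 1 library in a condition and also dropped the block, so their counts are not read as results. In the main fit 1 residual degree of freedom was left, so a gene's spread rested largely on what was shared across genes.

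Among the genes lower in NT positive cells, Xelaev18030329m.g had 57.5 and 3.52 CPM in NT1 and NT2, against 363 and 341 CPM in IVF1 and IVF2 (log2 fold change -4.53 ± 0.68, SE, edgeR adjusted p = 0.0158). Negative cells ran the same way, at 11.2 and 1.76 CPM in NT1 and NT2 against 76.2 and 33.8 CPM in IVF1 and IVF2, with a log2 fold change of -3.59 that did not pass (edgeR adjusted p = 0.573). The test of the difference between the sides for Xelaev18030329m.g gave -0.97 ± 0.51 (SE, edgeR adjusted p = 1). Its lower level in NT was thus seen on both sides of the split. After thinning, 28.6% and 1.47% of NT1 and NT2 positive cells had a UMI of it, against 70.3% and 61.3% of those of IVF1 and IVF2. The call of Xelaev18030329m.g was lost under DESeq2 (adjusted p = 0.383) and with DESeq2 size factors in edgeR (adjusted p = 0.106). It was also lost without the experiment block, without doublets, with thinned counts and with cells matched on depth. The log2 fold change itself was -4.73 by DESeq2, -4.54 without doublets and -4.48 matched on depth. With a library left out, which also dropped the block, it ran between -6.54 (without NT1) and -2.98 (without NT2).

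Xelaev18010955m.g had 1.72 and 1.55 CPM in positive cells of NT1 and NT2 (3 and 11 UMIs), against 13.2 and 25.9 CPM in those of IVF1 and IVF2 (log2 fold change -3.88 ± 0.47, SE, edgeR adjusted p = 0.00745). In negative cells Xelaev18010955m.g had 30.2 and 26.7 CPM in NT1 and NT2, against 33.2 and 98.9 CPM in IVF1 and IVF2. It was thus lower in positive than in negative cells of each library. It no longer passed without the experiment block or with cells matched on depth (edgeR adjusted p = 0.139). It also failed with positive cells taken from 2 UMIs, where the log2 fold change of Xelaev18010955m.g was -1.91 (edgeR adjusted p = 0.366). The fold change was -2.50 with another random draw and -2.77 without IVF2, a fit that also dropped the block.

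Of the genes higher in NT positive cells, Xelaev18011459m.g had 20.7 and 16.0 CPM in NT1 and NT2, against 4.22 and 2.77 CPM in IVF1 and IVF2 (log2 fold change 2.31 ± 0.37, SE, edgeR adjusted p = 0.022). The groups did not overlap, and a UMI was found after thinning in 11.1% and 8.82% of NT1 and NT2 positive cells, against 3.16% and 1.54% of those of IVF1 and IVF2. Negative cells ran the same way for Xelaev18011459m.g, at 4.54 and 6.65 CPM in NT1 and NT2, against 2.76 and 0.07 CPM in IVF1 and IVF2 (1 UMI in IVF2). Xelaev18015260m.g had 49.4 and 12.4 CPM in NT1 and NT2, against 12.5 and 1.72 CPM in IVF1 and IVF2 (2.28 ± 0.35, SE, edgeR adjusted p = 0.0158), so that it was higher in NT within each experiment while NT2 and IVF1 stood level. Negative cells also held Xelaev18015260m.g at 33.2 and 9.94 CPM in NT1 and NT2, against 11.6 and 3.38 CPM in IVF1 and IVF2. Both genes lost the call without the experiment block, with cells matched on depth, with thinned counts and with DESeq2 size factors in edgeR. Xelaev18011459m.g also lost it without doublets and from 2 UMIs. Fits with a library left out also dropped the block. In them the log2 fold change of Xelaev18011459m.g stayed between 2.25 and 2.35, while that of Xelaev18015260m.g ran between 1.14 (without NT1) and 3.62 (without IVF1).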

How the data were processed

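The authors aligned 10x reads to the X. laevis v9.1 genome with STAR and kept cells over 6000 UMIs and 2000 genes. UMIs were counted with Cell Ranger (2.2.0 in the submitters' processing notes). The paper gives that version for the v2 chemistry only and names a later version for v3. The deposited tables hold raw UMI counts for each gene and cell. Counts were summed per library and side and tested with edgeR 4.0.16 (TMM, filterByExpr) in R 4.3.3, with DESeq2 1.42.0 as the alternative. A call was an adjusted p under 0.05. Ratios within a library used CPM with a prior count of 2. The library was the replicate, never the cell. In tests of positive against negative cells, p-values measure how much that difference varies between libraries. For NT against IVF they measure how much the NT to IVF difference varies between experiments, with spread largely shared across genes. Positive and negative cells of a library are paired by it. NT and IVF were paired by experiment, as the study's methods do. As a check, the difference between the experiments in NT correlated with that in IVF at 0.69 across 14622 genes in positive and 0.71 across 15967 in negative cells. Scrublet (scanpy 1.11.5, 5% of doublets expected) called 55 cells doublets (1.62%), which were kept. Clusters used 2000 variable genes, 20 principal components, 20 neighbors and Leiden resolution 0.5. The named genes were the 2 largest rises and 2 largest falls among called genes averaging 10 CPM or more (for positive against negative cells, the same direction in all 4 libraries), plus the selecting gene, Xelaev18030329m.g and Xelaev18033986m.g. The members, the lists and this rule were chosen with earlier results of these data known. Lists of marker symbols could not be applied, and no sequence was used.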

Additional observations from a re-analysis of the deposited data

How the results depend on the processing

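For positive against negative cells 4195 genes were called. The count was 2317 with thinned counts summed, 695 without the replicate block, and 2274 (without NT2) to 3651 with a library left out. Within high-scoring cells, a choice made after seeing the data, it was 0 by edgeR, 3 by DESeq2, and 2 and 0 with thinned counts. Without the replicate block Xelaev18030329m.g lost its call. Genes past 1 log2 unit in all libraries (862) became 7211 at 0 and 71 at 2 log2 units, 449 with thinned counts and 392 when cells were negative after thinning. The difference of differences (0) became 2 by DESeq2, 71 without the filter on low counts, 69 with a side by experiment term, and 0 to 360 with a library left out. NT against IVF in positive cells (54) became 1 with thinned counts, 111 with positive cells from 2 UMIs, 286 with another seed, 0 matched on depth, 20 without doublets, 6 with DESeq2 size factors, 31 by DESeq2, 371 without the filter, 0 without the replicate block, and 0 to 129 with a library left out. In negative cells (0) it became 15 matched on depth, 24 by DESeq2, 302 without the filter and 4 to 135 with a library left out. The cause of these shifts was not tested. In the NT against IVF fits with a library left out, a condition kept 1 library and the experiment block was also dropped. Their counts therefore mix these changes and are not read as results. No fold change of a named gene changed sign in the alternatives that tested it. Xelaev18020205m.g was not tested with thinned counts or matched on depth, nor Xelaev18010955m.g with thinned counts. The balance of higher and lower calls did change. For positive against negative cells it was 2143 to 2052, and 2020 to 2359 with DESeq2 size factors. By DESeq2 it was 1957 to 2163, and without the filter 2619 to 2803. For genes past the limit in all libraries it was 568 to 294, 162 to 230 with cells negative after thinning and 3189 to 4022 at 0 log2 units. The share of positive cells in NT1, IVF1, NT2 and IVF2 was 3.11%, 12.9%, 3.81% and 30.2% from 2 UMIs, and 28.8%, 53.0%, 34.3% and 72.6% without thinning. A share of cells with a UMI rises with depth, and a draw of 6000 UMIs limits what a single cell can show.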
